A study of Homo sapiens with 22 samples.

Results

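Replication licensing genes were examined in chromatin immunoprecipitation sequencing (ChIP-seq) peak lists of the prostate cancer cell line 22Rv1. The set holds 10 genes: MCM2, MCM3, MCM4, MCM5, MCM6, MCM7, MCM10, CDC6, CDT1 and PCNA. They were chosen by name, and a region counted as theirs where it overlapped the gene's hg19 span widened by 5 kb on both sides. By that rule 330 of the 291055 regions in 8 deposited lists fell at the 10 genes, in windows of 315 kb in all. The targets mapped were the cell cycle transcription factor E2F3, the serine 5 phosphorylated form of RNA polymerase II (Pol2S5p) and H3K27me3, a histone mark that Polycomb complexes leave on silenced genes. Each was mapped in control cells (Ctrl) and in cells that overexpressed the linker histone variant H1-10 (H1-10 OE). Pol2S5p was also mapped with a control siRNA (siCtrl) and with an siRNA against E2F3 (siE2F3). The names of the peaks in the siCtrl and siE2F3 lists carry H1-10 overexpression, which the sample labels do not give, so both siRNA libraries may come from overexpressing cells. Each group is 1 library of the same cell line, so the comparisons are between single libraries without replicates, and none was tested. How strongly H1-10 was overexpressed, how far E2F3 was depleted and the number of clones behind the overexpressing cells were not analysed here.

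Licensing is the loading of the replicative helicase onto DNA before S phase. The MCM2, MCM3, MCM4, MCM5, MCM6 and MCM7 proteins form the ring of that helicase. CDC6 and CDT1 bring the ring to the origin recognition complex and load it. MCM10 acts later, when the loaded helicase is turned on, and PCNA is the sliding clamp that holds DNA polymerases on their template. These genes are textbook targets of the E2F factors, which bind promoters of genes needed for S phase and are held in check by the retinoblastoma protein. E2F factors recognise short GC-rich words close to the transcription start, and these words can be read from the promoters themselves.

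The promoter windows below run from 250 bases before to 50 bases after a RefSeq transcription start, on GRCh38.p14, written 5′ to 3′ along the gene. Capitals mark matches on either strand to TTGGCGC, the first of 4 E2F words searched, to the related word TTCCCGC, to the variant that reads TTCGCGC, and to the last of them, which reads TTGGCGG. The first 5 are the members with the highest-ranked E2F3 region at the start in the Ctrl list among those with a window in the RefSeq table, and for MCM7, which has 3 windows, the outermost is shown. MCM2, whose start had an E2F3 region in Ctrl and none in H1-10 OE, and PCNA-AS1, whose window lies inside the PCNA span, were added after their values were seen.
MCM3: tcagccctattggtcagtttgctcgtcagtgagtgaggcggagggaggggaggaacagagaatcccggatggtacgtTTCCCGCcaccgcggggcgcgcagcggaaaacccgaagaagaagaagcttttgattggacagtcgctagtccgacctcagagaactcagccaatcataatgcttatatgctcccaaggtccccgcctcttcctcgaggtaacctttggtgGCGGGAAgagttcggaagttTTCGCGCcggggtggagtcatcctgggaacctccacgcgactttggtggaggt
CDT1: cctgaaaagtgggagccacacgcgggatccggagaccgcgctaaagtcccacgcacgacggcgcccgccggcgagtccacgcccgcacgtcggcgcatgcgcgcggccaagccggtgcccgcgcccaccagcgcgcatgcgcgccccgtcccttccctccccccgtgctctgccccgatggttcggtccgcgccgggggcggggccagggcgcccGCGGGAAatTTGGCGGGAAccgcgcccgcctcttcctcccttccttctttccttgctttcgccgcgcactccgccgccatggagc
MCM7: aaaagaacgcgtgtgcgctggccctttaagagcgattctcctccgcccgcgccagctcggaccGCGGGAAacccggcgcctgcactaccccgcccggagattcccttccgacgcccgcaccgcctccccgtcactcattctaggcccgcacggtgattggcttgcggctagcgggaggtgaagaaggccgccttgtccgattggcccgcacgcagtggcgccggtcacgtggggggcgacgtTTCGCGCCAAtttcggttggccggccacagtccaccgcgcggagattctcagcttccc
CDC6: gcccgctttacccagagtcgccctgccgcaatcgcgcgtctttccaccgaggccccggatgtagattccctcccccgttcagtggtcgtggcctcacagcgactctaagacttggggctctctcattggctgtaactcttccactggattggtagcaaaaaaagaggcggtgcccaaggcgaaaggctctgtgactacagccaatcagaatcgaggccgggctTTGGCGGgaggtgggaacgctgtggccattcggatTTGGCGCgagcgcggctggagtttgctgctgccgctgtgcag
MCM10: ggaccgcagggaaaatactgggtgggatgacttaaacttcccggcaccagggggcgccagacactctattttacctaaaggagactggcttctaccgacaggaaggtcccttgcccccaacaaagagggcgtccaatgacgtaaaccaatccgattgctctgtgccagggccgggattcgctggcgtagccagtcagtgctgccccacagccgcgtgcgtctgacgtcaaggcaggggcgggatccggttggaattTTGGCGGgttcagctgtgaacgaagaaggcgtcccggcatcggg
MCM2: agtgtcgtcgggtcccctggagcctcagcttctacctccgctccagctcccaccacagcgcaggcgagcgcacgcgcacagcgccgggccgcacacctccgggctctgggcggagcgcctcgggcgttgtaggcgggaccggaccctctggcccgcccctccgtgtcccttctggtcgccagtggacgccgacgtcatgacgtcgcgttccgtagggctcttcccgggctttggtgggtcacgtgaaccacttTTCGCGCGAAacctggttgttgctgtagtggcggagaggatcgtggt
PCNA-AS1: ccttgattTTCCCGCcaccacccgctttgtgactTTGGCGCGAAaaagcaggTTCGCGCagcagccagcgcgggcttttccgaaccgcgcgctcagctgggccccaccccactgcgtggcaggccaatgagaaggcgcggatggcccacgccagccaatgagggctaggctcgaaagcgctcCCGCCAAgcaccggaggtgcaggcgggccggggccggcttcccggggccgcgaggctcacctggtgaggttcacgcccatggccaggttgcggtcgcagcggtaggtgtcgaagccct
The windows lie at chr6:52284693-52284992 (minus strand) for MCM3, chr16:88803539-88803838 (plus) for CDT1, chr7:100101348-100101647 (minus) for MCM7, chr17:40287629-40287928 (plus) for CDC6, chr10:13161308-13161607 (plus) for MCM10, chr3:127598161-127598460 (plus) for MCM2 and chr20:5119336-5119635 (plus) for PCNA-AS1. These are GRCh38.p14 positions, whereas every peak position in the text is on hg19.

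The RefSeq table held 11 windows for 8 of the 10 members, all but MCM4 and MCM5. Each of the 8 genes had an E2F word in at least 1 window, and 9 of the 11 windows had a word. Over all 34943 windows of the table, 13.8% held a word. Among the windows at least as GC-rich as the lowest member window (57.3% GC) the share was 21.6%, and 16.3% of 27167 genes had a word in any window. At 6 of the 8 member genes a single window held 2 or more words, against 1.93% of all windows. The member count takes each gene by its best window and the share counts single windows without matching GC, so they are unlike measures. Overlapping words are counted separately here: in MCM2 and MCM6 a word on either strand shares bases with the next, and the same holds at CDT1, at MCM7 and in the PCNA-AS1 window. In MCM3 the words began 173 and 23 bases before the start (TTCCCGC, the latter on the other strand) and 3 bases before it (TTCGCGC). MCM10 had a single word, TTGGCGG, beginning 6 bases after the start, and MCM2 had TTCGCGC on both strands from 3 bases after the start. The CCAAT box, searched as CCAAT on both strands, was present at 6 of the 8 genes, in 9 of their 11 windows and in 34.6% of all windows. The GC box, searched as GGGCGG, was present at 6 of the 8 genes, in 9 of their 11 windows and in 44.9% of all windows. The word TTTGAA, the cell cycle homology region of genes switched on in G2 and M phase, was in none of the 8 genes' windows and in 15.2% of all windows. A match describes letters in a window and is not a measured binding site.

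In the Ctrl list E2F3 had a region within 1 kb of the start of all 10 genes, and the strongest region of every gene stood among the strongest 1% of the 22988 E2F3 regions by significance. Rank is by the -log10 q of the authors' peak caller, where q is the p-value after their correction, and fold is the caller's enrichment at the summit over its own background. Both are the authors' values, used to describe and rank regions inside a list and never to compare levels between lists. The 10 genes held 17 E2F3 regions in Ctrl and 8 in H1-10 OE. The average density of each list was taken over the 3001 Mb between the outermost regions of all 8 lists pooled. At that density 2.41 and 0.451 regions would fall in windows of the same total length. The windows sit on genes, so that genome-wide average is not a matched comparison. The share of all genes with an E2F3 region at the start was not counted, because no hg19 annotation was used here.

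**Figure D1:**
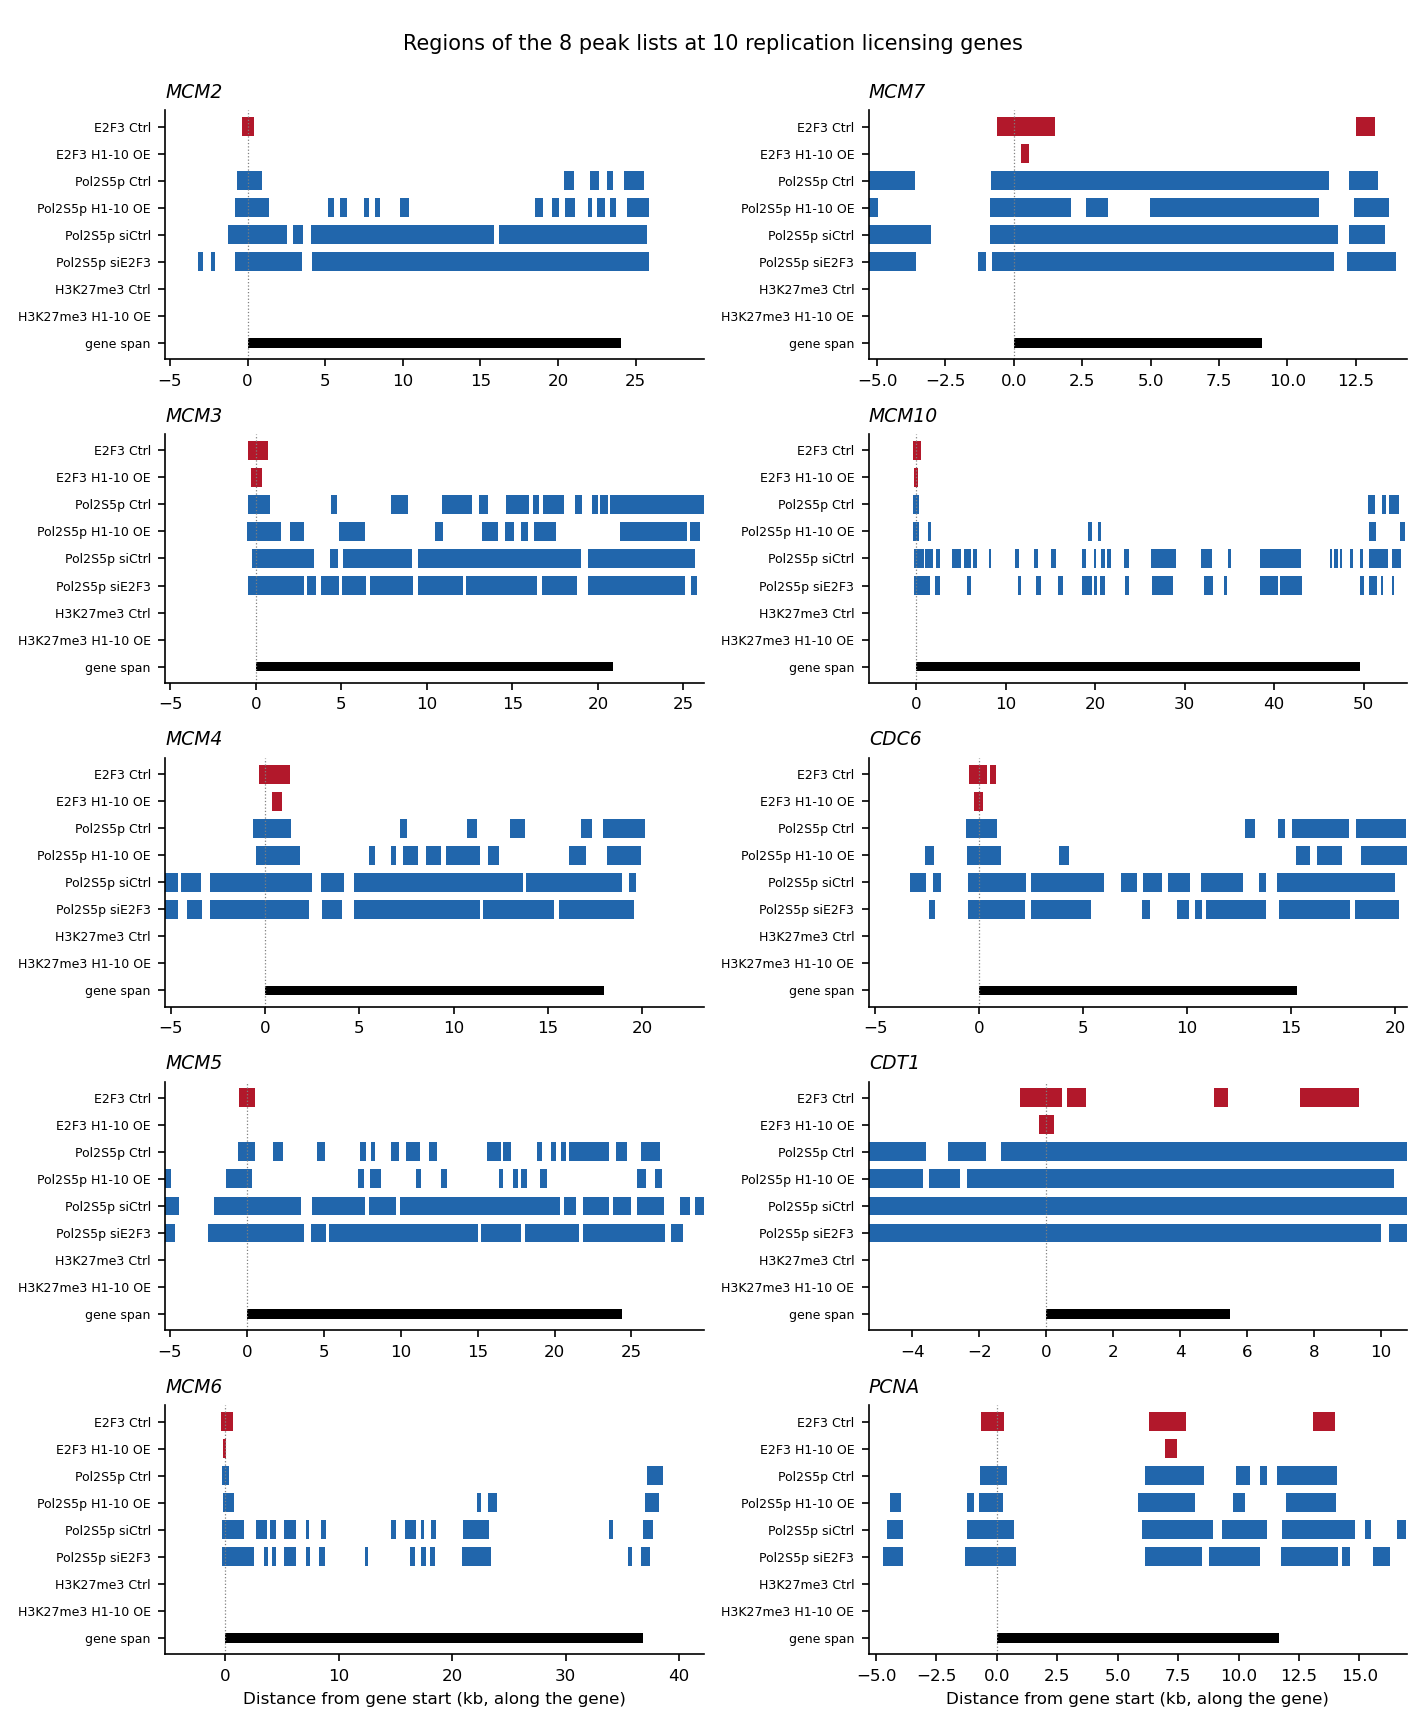
Each panel shows a gene and the regions of the 8 peak lists around it, with distance from the gene start in kb along the direction of transcription on the x axis and a row per list (red E2F3, blue Pol2S5p, black gene span; each list is 1 library). E2F3 regions sit at the gene starts, the strongest one of PCNA sits inside the gene, Pol2S5p regions spread along most spans in siCtrl and siE2F3, and the 2 H3K27me3 rows are empty at all 10 genes.

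The helicase ring genes covered the whole range of these ranks. MCM3 (hg19 chr6:52128807-52149679, minus strand) had the region ranked 2 of 22988, at chr6:52148960-52150129, with a -log10 q of 664, a fold of 138 and a summit 15 bp inside the start. In H1-10 OE its region ranked 11 of 4296, with a -log10 q of 122, a fold of 19.2 and a summit 12 bp from the Ctrl summit. MCM3 thus headed the 10 genes in both E2F3 lists. MCM4 (chr8:48872763-48890720, plus strand) ranked 7 in Ctrl, at chr8:48872411-48874053, with a -log10 q of 569 and a fold of 98.8. Its H1-10 OE region ranked 86 with a -log10 q of 53.9. The MCM4 summits lay 650 bp inside the gene in Ctrl and 687 bp inside it in H1-10 OE. That was farther from the start than at any other of the 9 genes whose leading region overlapped or lay near the start. The RefSeq gene of MCM4 on GRCh38 is 17220 bp long against 17958 bp for the span used here. The MCM4 start is therefore that of the rule, and these distances depend on it. The gene next to MCM4 on the side of its start is PRKDC, the catalytic subunit of the DNA-dependent protein kinase.

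MCM7 (chr7:99690351-99699427, minus strand) had the widest leading E2F3 region of the 10, 2149 bp at chr7:99697911-99700059, ranked 53 with a -log10 q of 385 and a summit 367 bp inside the start. In H1-10 OE the region there was 315 bp wide and ranked 1126 of 4296, the lowest rank of the 8 genes with a region in that list. MCM6 (chr2:136597196-136634047, minus strand) ranked 205 in Ctrl, at chr2:136633391-136634481, with a -log10 q of 252 and a fold of 74.9, and 865 in H1-10 OE, with a fold of 4.30. Its summits lay 58 bp before the start in Ctrl and 46 bp before it in H1-10 OE. The wide MCM7 region of Ctrl and the short one of H1-10 OE therefore had summits 20 bp apart, and those of MCM6 were 12 bp apart. The RefSeq gene of MCM7 on GRCh38 is 8670 bp long against 9077 bp for the span used here. Distances from the MCM7 start are therefore from the start of the rule, which may not be the RefSeq start. The gene next to MCM7 on the side of its start is AP4M1. The hg19 start of AP4M1 was not located here, so whether the wide MCM7 region also covers it was not determined.

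MCM5 and MCM2 were the 2 genes with no E2F3 region in H1-10 OE anywhere in their windows. MCM5 (chr22:35796116-35820495, plus strand) had a Ctrl region at chr22:35795607-35796639 with rank 138, a -log10 q of 295, a fold of 67.3 and a summit 132 bp before the start. MCM2 (chr3:127317200-127341278, plus strand) had a Ctrl region at chr3:127316834-127317596 with rank 225, a -log10 q of 242, a fold of 50.7 and a summit 54 bp inside the start. MCM2 thus had the lowest-ranked leading region of the 10, whereas MCM5 stood above MCM10 and MCM6, which had regions in both lists. The RefSeq gene of MCM5 on GRCh38 is 54892 bp long against 24380 bp for the span used here, so the MCM5 start is that of the rule.

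The loading factors and the later-acting MCM10 had their leading regions at their starts. CDT1 (chr16:88870186-88875666, plus strand) ranked 22 in Ctrl, at chr16:88869417-88870648, with a -log10 q of 478 and a fold of 98.4, and 157 in H1-10 OE, with a -log10 q of 39.3. Its summit lay 17 bp before the start in Ctrl and 8 bp inside it in H1-10 OE, and the CDT1 window above shows 3 E2F words in the 35 bases before the RefSeq start. CDC6 (chr17:38444146-38459413, plus strand) ranked 112 in Ctrl, at chr17:38443666-38444515, with a -log10 q of 309, and 360 in H1-10 OE, with a -log10 q of 23.6. MCM10 (chr10:13203554-13253104, plus strand) ranked 153 in Ctrl, at chr10:13203156-13204034, with a -log10 q of 283, and 637 in H1-10 OE, with a -log10 q of 15.7. CDT1, CDC6 and MCM10 therefore had their region in both lists, with summits 25, 41 and 10 bp apart.

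PCNA (chr20:5095599-5107268, minus strand) differed in layout, because its strongest E2F3 region lay 7224 bp inside the outer start of its span. That region, chr20:5099457-5100989, at rank 4 with a -log10 q of 641 and a fold of 135, was 1533 bp wide. RefSeq gives PCNA an inner start 6664 bp inside the outer one on GRCh38, where the span has the same length of 11670 bp. The PCNA window at that inner start held no E2F word, and the window at the outer start held 1. The window of the antisense gene PCNA-AS1 covers 6987 to 7286 bp inside the outer start, and its E2F words fall between 7098 and 7278 bp. The nearest of these to the E2F3 summit is TTCGCGC, at 7228 to 7234 bp. The H1-10 OE region at the same place ranked 133 with a -log10 q of 42.2, and its summit lay 2 bp from that of Ctrl. At the outer start, PCNA had a weaker region in Ctrl at chr20:5106958-5107913 (rank 446, -log10 q of 187, fold of 47.3), and no region in H1-10 OE. PCNA was thus the only gene of the 8 whose H1-10 OE region was not within 1 kb of the start used here, which leaves 7 genes with a start region in that list.

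**Figure D2:**
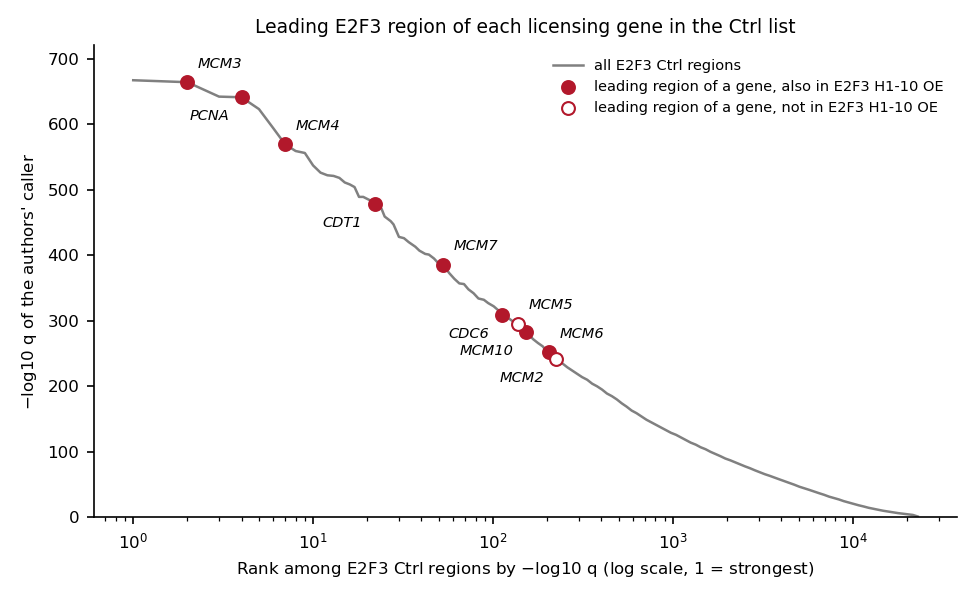
The -log10 q of E2F3 regions in the Ctrl library is plotted against their rank in the list on a log axis, as a grey line for all regions and as circles for the leading region of each licensing gene (filled where the region was also found in H1-10 OE, open where it was not). The circles run from MCM3 at rank 2 to MCM2 at rank 225, and the open ones are MCM5 and MCM2.

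Of the 17 E2F3 regions at these genes in Ctrl, 8 overlapped an H1-10 OE region by at least 1 bp and 9 did not. Over the whole list 2.59% of Ctrl regions had such a partner and 97.4% had none. All 8 H1-10 OE regions at the genes overlapped a Ctrl region, where 14.1% of that list did and 85.9% did not. Strength must be read beside these shares. Of the 229 regions in the strongest 1% of the Ctrl list, 76.0% were found in H1-10 OE (95% Wilson interval 70.1 to 81.1%, counting error only), in the next 1% the share was 34.3%, and among the weaker 50% it was 1.06%. Among the 226 Ctrl regions at least as significant as the leading region of MCM2, 75.7% were also found in H1-10 OE (69.7 to 80.8%). The 8 of 10 leading regions at licensing genes lie close to that share. The 226 regions are all those above a cut, include the leading regions and are not matched to them rank by rank. With 10 genes, a difference from other strong E2F3 regions can be neither shown nor excluded.

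**Figure D3:**
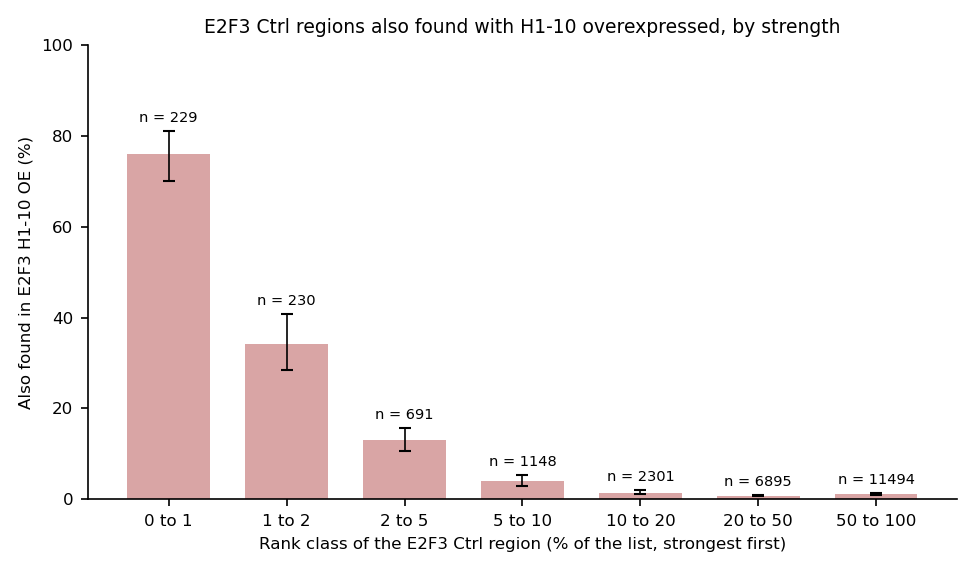
Bars give the percent of E2F3 Ctrl regions that overlapped an E2F3 H1-10 OE region, in classes of rank by -log10 q from the strongest 1% on the left to the weaker 50% on the right, with 95% Wilson intervals that cover counting error only and the number of regions above each bar. The share falls from 76.0% in the strongest class, which holds the leading regions of all 10 licensing genes, to 1.06% in the weakest.

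The regions found in both lists were narrower in H1-10 OE and centred at nearly the same base. At the 8 genes the summits were 2 to 41 bp apart, with a median of 16.0 bp, against a median of 28.0 bp (quartiles 11.0 and 74.5) over all 595 Ctrl regions found in both lists. The H1-10 OE region had a median width of 36.5% of its Ctrl partner at the 8 genes and 42.5% over the 595. The read depth of both libraries is unknown here.

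The 7 other E2F3 regions at these genes in Ctrl had no counterpart in H1-10 OE, where 97.4% of the whole Ctrl list had none. All were weaker than the leading regions as a class. Among all Ctrl regions, 34.3% had a counterpart from the top 1% to 2%, where the outer PCNA start lies, and 13.0% from 2% to 5%. The share was 3.92% from 5% to 10%, 1.43% from 10% to 20% and 1.06% in the weaker 50%. The outer PCNA start, described above, is the strongest of the 7. Another 3 lay beyond the end of a gene, towards its neighbour. CDT1 had a region at chr16:88877757-88879520 (-log10 q of 127, fold of 37.8) on the side of APRT, an enzyme of adenine salvage. MCM7 had a region at chr7:99686235-99686910 (-log10 q of 83.0, fold of 24.0) on the side of COPS6, a subunit of the COP9 signalosome. PCNA had a region at chr20:5093281-5094185 (-log10 q of 78.5, fold of 22.2) on the side of TMEM230. The hg19 positions of these neighbours were not used, so whether the 3 regions lie at a neighbour's own start was not determined. The lists do not say to which gene they belong. The remaining 3 were weak: chr16:88870815-88871380 and chr16:88875197-88875614 at CDT1 had a -log10 q of 6.47 and 4.00, and chr17:38444689-38444970 at CDC6 had 5.32.

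Every E2F3 region at the licensing genes overlapped Pol2S5p. All 17 Ctrl regions overlapped a Pol2S5p region of the Ctrl list, where 68.0% of all E2F3 Ctrl regions did. All 8 H1-10 OE regions overlapped Pol2S5p of the H1-10 OE list, where 30.2% of all E2F3 H1-10 OE regions did. The counts were again 17 of 17 and 8 of 8 against the siCtrl and siE2F3 lists, with list shares of 70.6% and 67.8% for the Ctrl regions and 18.2% and 15.0% for the H1-10 OE regions. These shares cover E2F3 regions of every strength and place, so they are not matched to strong regions at gene starts. Pol2S5p also covered much of the windows, 27.2% in Ctrl, 26.1% in H1-10 OE, 61.6% in siCtrl and 59.2% in siE2F3. Whether the overlap is particular to these genes was not tested.

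Pol2S5p, the form of the polymerase found at starting genes, had a region at the start of all 10 genes in all 4 lists. The share of all genes with such a region was not counted, so the count is not shown to be particular to this set. The start regions held a median place at the top 11.3% of the Ctrl list, 12.9% of H1-10 OE, 1.57% of siCtrl and 1.69% of siE2F3. Each of these medians was lower in its list than that of the E2F3 start regions in Ctrl, the top 0.543%. Single Pol2S5p start regions stood above that value, with CDT1 at the top 0.331% of siCtrl and 0.223% of siE2F3. CDT1 stood highest of the 10 by rank in every list, at 632 of 35493 in Ctrl, 226 of 40626 in H1-10 OE, 277 of 83650 in siCtrl and 185 of 83067 in siE2F3. Its region was 12.9, 12.8, 25.5 and 19.0 kb wide in these lists and ran over the whole gene and beyond its end. The summit of the CDT1 region lay 4529 to 8053 bp from the start in the 4 lists, so the strongest point of that region need not belong to CDT1.

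The lowest-ranked start region was that of MCM6 in Ctrl and that of the outer PCNA start in the other 3 lists. The MCM6 start region stood at the top 34.3% of the Ctrl list (-log10 q of 19.1), 15.3% of H1-10 OE, 4.69% of siCtrl and 2.97% of siE2F3. The outer start of PCNA stood at the top 29.4% in Ctrl (29.1), and at rank 10975 in H1-10 OE (17.6), 9077 in siCtrl (52.9) and 9945 in siE2F3 (36.6). The strong Pol2S5p region of PCNA was the inner one, where the leading E2F3 region also lay. It ranked 216 in Ctrl (-log10 q of 222), 410 in H1-10 OE (117), 281 in siCtrl (337) and 449 in siE2F3 (251), within the top 1.01% of each list. Its summit lay 6692 to 6803 bp inside the outer start in the 4 lists, close to the inner RefSeq start at 6664 bp and 421 to 532 bp from the E2F3 summit of Ctrl on the side of the outer start.

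The 2 genes with no E2F3 region in H1-10 OE had Pol2S5p at their starts in both conditions. At MCM2 the start region ranked 1548 of 35493 in Ctrl (-log10 q of 138) and 6688 of 40626 in H1-10 OE (33.5), the top 4.36% and 16.5% of the lists. At MCM5 it ranked 6093 in Ctrl (69.3) and 5357 in H1-10 OE (39.6), the top 17.2% and 13.2%. MCM2 thus stood lower within the H1-10 OE list than within the Ctrl list, and MCM5 stood slightly higher. MCM4 had the opposite shift to MCM2, from the top 5.14% in Ctrl to 1.57% in H1-10 OE.

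Of the other members, CDT1, CDC6, MCM3, MCM6 and the outer PCNA start stood higher within the H1-10 OE list than within the Ctrl list, and MCM7 and MCM10 stood slightly lower. MCM7 ranked 828 in Ctrl (-log10 q of 163) and 1180 in H1-10 OE (80.1), the top 2.33% and 2.90%. Its summits lay 500 and 491 bp inside the start of the rule. Its region in Ctrl was a single one of 12.4 kb over the whole gene, while in H1-10 OE the start carried a region of 2.95 kb and the rest of the gene was held by separate regions. CDC6 ranked 1941 in Ctrl (127) and 1215 in H1-10 OE (79.3), the top 5.47% and 2.99%, with summits 30 and 29 bp inside the start. MCM3 stood at the top 19.7% in Ctrl and 12.6% in H1-10 OE, so the gene with the highest-ranked E2F3 region of the set was not among the leading genes for Pol2S5p. MCM10 stood at the top 19.3% and 19.9%, with the narrowest start region of the set in H1-10 OE, 708 bp. At MCM6 the start region went from the top 34.3% to 15.3%. Ranks in lists of different length are places within each list and show no change in level.

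Pol2S5p regions found in Ctrl or H1-10 OE alone were weak and mostly lay inside the genes. In Ctrl 19 of 61 regions at the genes (31.1%) had no counterpart in H1-10 OE, where 41.0% of the whole list had none. In H1-10 OE 27 of 74 (36.5%) had no counterpart in Ctrl, where 42.8% of the list had none. The 19 of Ctrl lay at 6 genes, 8 of them at MCM5 and 5 at MCM3. Their highest -log10 q was 7.72, tied between chr22:35817077-35819677 and chr22:35820127-35820847 near the end of MCM5. The 27 of H1-10 OE lay at 8 genes, 7 of them at MCM2, and their highest -log10 q was 6.19, at chr2:136610130-136610870 inside MCM6. A single one of these 46 regions, chr20:5108213-5108504 at the outer PCNA start in H1-10 OE (-log10 q of 3.72), lay within 1 kb of a start. At the other genes the most significant region of Ctrl alone had a -log10 q of 6.80 beyond the end of MCM10, 5.37 in MCM3, 3.73 in CDC6, 3.59 in MCM4 and 3.52 in PCNA. For H1-10 OE alone the values were 5.91 in MCM4, 5.19 in MCM2, 4.53 in MCM3, 4.26 before MCM5, 4.20 in MCM10 and 3.07 in CDC6. MCM7 and CDT1 had no region in either list without a counterpart in the other.

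The length of gene covered by Pol2S5p summed over the 10 spans to 45.9 kb for Ctrl and 45.1 kb for H1-10 OE, a ratio of 0.983, while the covered length of the whole lists had a ratio of 0.907. The sum hid shifts in both directions. MCM5 was covered over 40.2% of its span in Ctrl and 14.6% in H1-10 OE, and MCM7 over 100% and 76.6%. MCM2 went the other way, with 10.0% and 26.4%, as did MCM4, with 20.9% and 40.9%. Of the 10 genes 4 were covered more in H1-10 OE, 5 less, and CDT1 was covered whole in both. MCM6 and MCM10, the longest genes of the set, were hardly covered away from their starts, at 0.969% and 0.714% in Ctrl and 5.05% and 2.95% in H1-10 OE. With 1 library a condition, such shifts cannot be told apart from the spread between libraries.

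**Figure D4:**
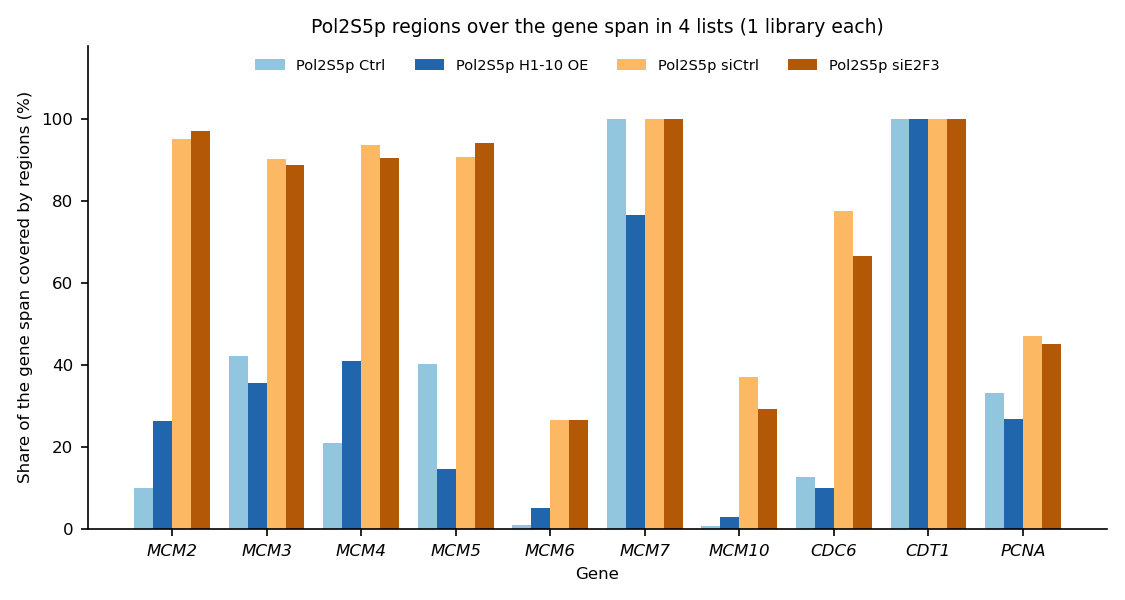
Bars give the percent of each gene's span covered by Pol2S5p regions in 4 lists of 1 library each, so there are no error bars. Cover in siCtrl and siE2F3 was larger than in Ctrl and H1-10 OE at 8 of the 10 genes, and CDT1 was covered whole in every list.

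With the siRNA against E2F3, Pol2S5p regions stood at the starts of all 10 genes, as with the control siRNA. No share over all genes stands beside that count. Of the 87 regions at the genes in siCtrl, 16 (18.4%) had no counterpart in siE2F3, where 30.6% of the list had none. Of the 83 regions in siE2F3, 8 (9.64%) had no counterpart in siCtrl, where 22.9% of the list had none. None of these 24 regions lay at a start. MCM10 held 10 of the 16, among them the most significant of all regions found in siCtrl or siE2F3 alone at these genes, chr10:13209903-13210375 (-log10 q of 15.8, fold of 8.74), 6648 bp inside the gene. The most significant of the 8 was chr2:136621464-136621731 inside MCM6, with a -log10 q of 6.41. The other 6 of the 16 were spread over CDC6, MCM6 and PCNA, and none of their -log10 q values passed 4.78. MCM3, MCM4, MCM5 and CDT1 had no region in either siRNA list without a counterpart in the other.

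Within their own lists the start regions held similar places with and without the siRNA against E2F3. MCM3 stood at the top 1.19% in siCtrl and 1.32% in siE2F3, MCM7 at 0.851% and 0.964%, and CDC6 at 1.57% and 1.08%. MCM10 went from 5.87% to 8.08%, MCM4 from 0.964% to 2.07% and MCM6, the other way, from 4.69% to 2.97%. The covered length of the 10 spans was 141 kb in siCtrl and 136 kb in siE2F3, a ratio of 0.963 against 0.881 for the lists. CDC6 was covered over 77.5% of its span in siCtrl and 66.6% in siE2F3, and MCM10 over 37.1% and 29.3%. MCM2 was covered over 95.3% and 97.2%, with a single region of 21.7 kb in siE2F3, and MCM5 over 90.8% and 94.3%.

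The siRNA lists covered much more of these genes than the list of H1-10 OE. The spans held 141 kb of Pol2S5p in siCtrl and 45.1 kb in H1-10 OE, a ratio of 3.12, where the lists as a whole had a ratio of 2.63. Cover was larger in siCtrl at 9 genes and equal at CDT1. CDC6 went from 10.1% in H1-10 OE to 77.5% in siCtrl and MCM2 from 26.4% to 95.3%. The folder label in the peak names and the list length also differ between the siRNA lists and the H1-10 OE list. Their read depth is unknown, so treatment and library cannot be told apart here.

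Pol2S5p also reached past the ends of the genes. In each of the 4 lists all 10 genes had some cover in the 5 kb beyond the end, with medians of 47.6% in Ctrl, 38.2% in H1-10 OE, 69.0% in siCtrl and 69.8% in siE2F3. At CDC6 this stretch was covered over 93.3% in Ctrl and 75.6% in H1-10 OE, although the gene span itself was covered over 12.8% and 10.1%. At MCM3 it was covered over 100% and 88.3%, and at MCM10 over 46.9% and 24.1%. Regions there can include the polymerase of the next gene.

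H3K27me3 had no region at any of the 10 genes in either list. The lists held 2540 regions in Ctrl and 18395 in H1-10 OE, and at their average density 0.267 and 1.93 regions would fall in windows of this length, so a count of 0 is little below it. The nearest H3K27me3 region of Ctrl lay 66.9 kb from CDT1, and the median distance over the 10 genes was 1039 kb. In H1-10 OE the nearest lay 89.3 kb from MCM5 and the median was 155 kb. The longer list came closer to 8 of the 10 genes, while at CDT1 it lay farther, 130 kb against 66.9 kb, and at MCM10 farther too, 2911 kb against 173 kb.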

How the data were processed

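Peak lists of 8 of the 22 samples were used, 1 library per group, with groups taken from the sample labels; the other 14 samples, inputs and libraries of H1-10 itself, were not analysed here. The tools FastQC, fastp and Bowtie and the build hg19 are named per the submitters' processing notes. Which caller, threshold and input gave the lists is not given in the sources used here, nor are versions. The authors deposited 1 list per library with a score for each peak, its summit's fold enrichment (a ratio to their caller's background), -log10 p and -log10 q values of their caller, and a summit offset in bp; the lowest -log10 q was 1.30. The folder label in the peak names is shared by the H3K27me3 lists and the Pol2S5p Ctrl and H1-10 OE lists, and another is shared by the E2F3, siCtrl and siE2F3 lists, so overlaps of E2F3 with Pol2S5p of Ctrl or H1-10 OE cross it.

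The 10 genes, their spans, the motif words and the comparisons were chosen with earlier results of these data known. All 10 genes are named, with the region nearest the start in each list and the most significant region of a gene found in 1 list of a pair alone. Overlap meant at least 1 bp. Intervals are 95% Wilson intervals covering counting error only. Alternatives were a -log10 q of at least 5, the span alone, 250 bp from the start, 50% reciprocal overlap, the summit inside a region, regions within 1 kb merged and equal list lengths; ranking by fold was added after the data were seen. Read depth is unknown here. RefSeq tables of GRCh38.p14 gave strands, neighbouring genes and promoter sequences, and no position was converted between builds. An hg19 annotation was not used here, so the planned list of other replication genes and the prostate cell markers were not analysed. Overlap counting was tested on shifted copies of regions from the lists, and its counts within each pair of lists equalled those of bedtools. Tools were Python 3.11.15, numpy 2.4.6, pandas 2.3.3, scipy 1.17.1, matplotlib 3.10.9 and bedtools 2.31.1.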

Additional observations from a re-analysis of the deposited data

How the results depend on the processing

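Of 95 recomputed values over 28 results, 78 stayed within 1.5 times the reported count and 17 moved. Under 50% reciprocal overlap, which narrow regions inside wide ones cannot meet, 3 E2F3 Ctrl regions at the genes were shared with H1-10 OE, 14 were in Ctrl alone and 5 in H1-10 OE alone; 9 overlapped Pol2S5p in Ctrl and 1 in H1-10 OE. Under the same rule 38 Pol2S5p regions were in Ctrl alone, 51 in H1-10 OE alone, 42 in siCtrl alone and 39 in siE2F3 alone. With a -log10 q of at least 5, 8 Pol2S5p regions were in Ctrl alone and 10 in H1-10 OE alone. With regions within 1 kb merged these counts were 6 and 12, with 5 in siCtrl alone and 4 in siE2F3 alone. With the summit inside a region, 29 were in Ctrl alone, and over the span alone 4 were in siE2F3 alone. Why the counts moved under the summit rule was not tested. The number of genes with a region, or with a start region, was the same in each list under the alternatives run for it, except that 5 in place of 7 genes had an E2F3 start region in H1-10 OE within 250 bp of the start. Ranked by fold in place of -log10 q, an alternative chosen after seeing the data, 9 of the 10 genes had a region in the strongest 1% of E2F3 Ctrl, and MCM2, at rank 296, fell outside it. No paired analysis was possible because each group holds 1 library. Unknown depth limits every comparison between lists, and a region missing from a list was not called there, which does not show that the protein was absent.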
